A study of Mus musculus with 71 samples.

Results

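Lymphoid progenitors from mouse bone marrow whose only Pax5 protein was the paired domain were compared with progenitors of the same gate that lacked Pax5. The comparison rested on 4 libraries chosen by genotype and gate from the labels, among 48 RNA-seq samples and 71 samples in the series. Of these, 2 were Vav-Cre Pax5(Prd/fl) progenitors (written Pax5 Prd/∆) and 2 were Vav-Cre Pax5(fl/fl) progenitors (Pax5 ∆/∆), and 2 libraries of Vav-Cre Pax5(fl/+) pro-B cells (Pax5 +/∆) were made in the same experiment. All mice were C57BL/6, their age is not given in the labels, and all 3 groups carried Vav-Cre, a transgene active from the earliest blood cells on, so that Pax5 was not lost in B-lineage cells alone. The Prd allele expresses the paired domain from the Pax5 locus, so Pax5 Prd/∆ cells had 1 copy of a truncated gene and no copy of the complete one. Both progenitor genotypes carry the label of an alternative gating, whose markers the titles do not give. The study's listed gate for Pax5-deficient progenitors required B220, Ly6D and high Kit and left out cells stained for markers of other lineages (Lin-). The pro-B cells were sorted by another gate.

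Pax5 is the transcription factor that commits lymphoid progenitors to the B cell lineage. Its paired domain binds DNA, and the octapeptide, the partial homeodomain and the C-terminal transactivation and inhibitory regions recruit other proteins. In pro-B cells Pax5 turns on genes of the B cell receptor pathway, such as Cd79a, and turns off genes of other lineages. The comparison of Pax5 Prd/∆ with Pax5 ∆/∆ progenitors therefore addresses what the DNA-binding domain does without the rest of the protein.

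Expression was analysed across 12941 genes above 1 TPM (transcript abundance scaled to a fixed total per library) in at least 1 of the 6 libraries. Depths recovered from the TPM values lay between 29684525 and 43784791 reads, the lowest in Pax5 Prd/∆ replicate 1. The labels do not say whether a library came from 1 mouse or from pooled mice, and p-values measure the spread between libraries. Pax5 Prd/∆ replicate 1 had 0.0942 TPM of Xist and 17.6 TPM of Ddx3y, and replicate 2 had 138 TPM and 0.0123 TPM. Both genes were above 5 TPM in the 2 Pax5 ∆/∆ and the 2 Pax5 +/∆ libraries, so the sexes were not balanced between the libraries. The Pax5 ∆/∆ and Pax5 +/∆ libraries thus held RNA of male and female mice, and so of more than 1 mouse, whereas each Pax5 Prd/∆ library showed 1 sex. The effect of this on the spread was not tested. None of 5 sex-linked genes passed the test between the genotypes. With the 2 Pax5 Prd/∆ libraries of opposite sex, the standard errors were wide (2.64 for Xist and 2.04 for Ddx3y), so this test could not show a difference. The 10 progenitor gate markers, among them Kit, Ly6d and Flt3, were expressed in all 4 libraries, and none passed the thresholds. In these bulk libraries, fewer cells of a type and less RNA per cell cannot be told apart.

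Pax5 mRNA (chromosome 4, 44524748 to 44710694, GRCm38) was present in every library. It measured 620.2 and 852 TPM in Pax5 Prd/∆ progenitors, 1129 and 1301 TPM in Pax5 ∆/∆ progenitors, and 620.1 and 618 TPM in Pax5 +/∆ pro-B cells. The Pax5 ∆/∆ libraries were above the Pax5 Prd/∆ libraries by 1.67-fold, which did not pass the test (adjusted p = 0.0761, limma with Benjamini-Hochberg adjustment over all genes). Since the alleles encode transcripts of different content, these gene totals do not compare amounts of protein, and they do not show which part of the transcript was lost.

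Few genes distinguished progenitors with the paired domain from those without Pax5. A gene was called at an adjusted p under 0.05, a fold above 2 and a mean above 5 TPM in 1 genotype, with immunoglobulin and histone genes left out. Of 12665 genes, 51 were higher (0.403%) and 39 were lower (0.308%) in Pax5 Prd/∆ progenitors. At the adjusted p alone, 150 genes were higher (1.18%) and 101 were lower (0.797%). At a fold above 3 these were 14 and 10 genes. The higher genes included Cd79a and Vpreb3 of the pre-B cell receptor pathway, the immediate-early genes Fos and Jun, and the chemokine genes Ccl3 and Ccl4, and the lower genes included many that act in mitosis, such as Plk1 and Ube2c, together with Id3 and Jchain. The median difference over all genes was 0.07 on the log2 scale, and it was -0.04 after median centring, under which the called genes were 44 higher and 55 lower instead. Leaving out either Pax5 ∆/∆ library left 1 gene past the thresholds, Fos, when the remaining library was assumed to vary like the other groups. Without Pax5 Prd/∆ replicate 2 the counts were 193 higher and 54 lower, and without replicate 1 they were 44 and 50. Among 219 immunoglobulin genes 2 would have been called, and among 57 histone genes none.

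**Figure D1:**
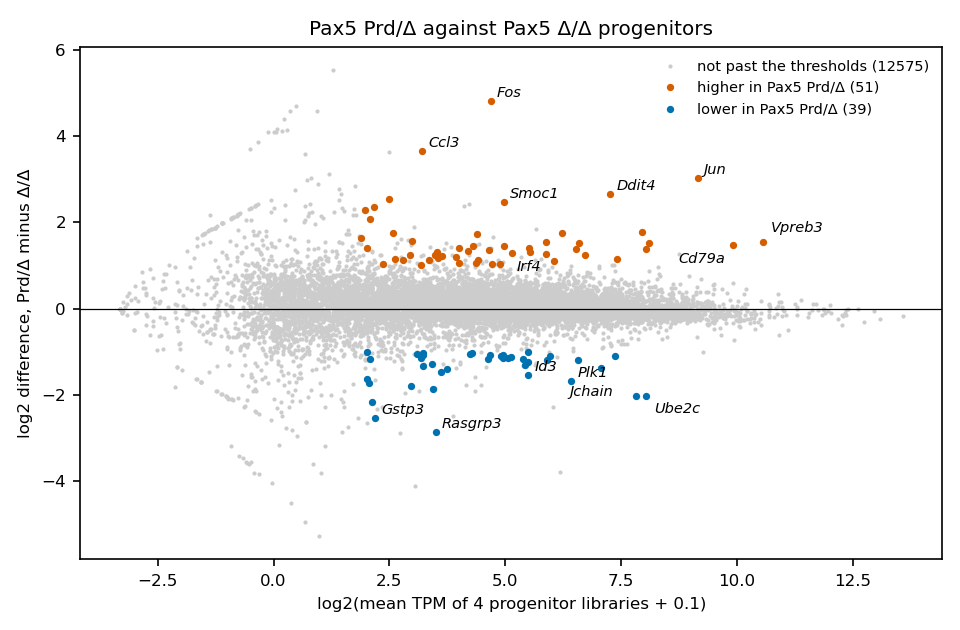
Each point is 1 gene, with the log2 difference in TPM between Pax5 Prd/∆ and Pax5 ∆/∆ progenitors on the y axis and the log2 mean TPM of the 4 libraries on the x axis. The 51 higher genes (orange) reach 4.81 for Fos, and the 39 lower genes (blue) reach -2.87 for Rasgrp3.

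At the edge of the fold threshold the differences were graded. Hip1 (log2 difference 1.01) and Tpx2 (-1.01) lay just inside, and Cyp4f18 (0.99) lay just outside with an adjusted p under 0.05.

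The signalling chain gene Cd79a and Vpreb3, whose protein associates with the pre-B cell receptor, rose to an intermediate level in Pax5 Prd/∆ progenitors. Cd79a (chromosome 7, 24897497 to 24901858) encodes Igα, which transmits signals of the B cell receptor and the pre-B cell receptor. It measured 1343 and 1494 TPM in Pax5 Prd/∆ progenitors, 507 and 505 TPM in Pax5 ∆/∆ progenitors, and 3104 and 3151 TPM in Pax5 +/∆ pro-B cells. The 3 groups did not overlap, and the Pax5 Prd/∆ mean was 45.4% of the Pax5 +/∆ mean against 16.2% for Pax5 ∆/∆. The log2 difference between the progenitors was 1.48 (standard error 0.08, adjusted p = 0.00206, n = 2 libraries each, limma). The 2 Pax5 ∆/∆ libraries of an earlier experiment had 439 and 452 TPM, close to the Pax5 ∆/∆ libraries here.

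The 200 bases before the RefSeq start of Cd79a are shown because Cd79a is a well-known direct target of Pax5 and was among the B-lineage genes that rose. The window lies at chr7:24897297-24897496 on the plus strand of GRCm38.p6.

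Cd79a: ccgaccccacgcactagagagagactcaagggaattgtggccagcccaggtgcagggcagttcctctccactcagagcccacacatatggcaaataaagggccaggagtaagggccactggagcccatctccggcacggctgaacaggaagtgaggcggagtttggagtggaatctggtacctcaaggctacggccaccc

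Vpreb3 (chromosome 10, 75943024 to 75949657) encodes a protein that associates with the pre-B cell receptor during its assembly. It had 2341 and 2141 TPM in Pax5 Prd/∆ progenitors, 727 and 818 TPM in Pax5 ∆/∆ progenitors, and 5043 and 4712 TPM in Pax5 +/∆ pro-B cells. The Pax5 Prd/∆ mean was again 46.0% of the Pax5 +/∆ mean, against 15.8% for Pax5 ∆/∆. The difference was 1.54 (standard error 0.10, adjusted p = 0.00356, limma).

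Most other B-lineage genes activated by Pax5 did not pass the thresholds, although they lay mostly on the higher side. Of 31 such genes tested, 2 rose (Cd79a and Vpreb3), none fell and 29 did not pass. Both Pax5 Prd/∆ libraries were above both Pax5 ∆/∆ libraries for 20 of the 31 genes, against 31.4% of all genes. The median difference of the list was 0.38, against 0.07 over all genes. Without Cd79a and Vpreb3, the remaining 30 genes of the list, the untested included, summed to 9033 and 8702 TPM in Pax5 Prd/∆, 7294 and 7981 TPM in Pax5 ∆/∆, and 17829 and 17413 TPM in Pax5 +/∆ libraries. The sums of the progenitors did not overlap, and both lay far below those of the pro-B cells.

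Single members of this list show how small the further differences were. Bst1, which encodes an ectoenzyme of the cell surface, had 62.2 and 71.5 TPM against 38.6 and 39.1 TPM, a difference of 0.78 that passed the p threshold (adjusted p = 0.0155, limma) but not the fold threshold. Vpreb1, a component of the surrogate light chain, had 1377 and 1317 TPM against 961 and 1001 TPM, with a difference of 0.46 and an adjusted p of 0.0442 by limma. Ebf1, the transcription factor that acts with Pax5 in early B cells, had 202 and 179 TPM against 129 and 148 TPM, and its difference of 0.46 was not called (adjusted p = 0.0853, limma). Lef1, a nuclear partner of β-catenin, had 59.4 and 51.1 TPM against 15.6 and 36.4 TPM (adjusted p = 0.148, limma), while the Pax5 +/∆ libraries had 561 and 557 TPM.

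Among 30 genes of B cell receptor and pre-B cell receptor signalling, 3 rose, 1 fell and 26 did not pass, with a median difference of 0.21. Beside Cd79a and Vpreb3, the adaptor gene Gab1 rose from 3.86 and 3.87 TPM to 12.9 and 10.4 TPM (1.56, adjusted p = 0.00952, limma). The one that fell was Rasgrp3, which encodes an activator of Ras that responds to diacylglycerol, with 2.15 and 2.91 TPM in Pax5 Prd/∆ against 13.8 and 25.8 TPM in Pax5 ∆/∆ progenitors. At -2.87 (standard error 0.31, adjusted p = 0.0126, limma) it had the largest decrease of the genes called, and the Pax5 +/∆ libraries, at 3.77 and 3.83 TPM, were close to Pax5 Prd/∆.

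**Figure D2:**
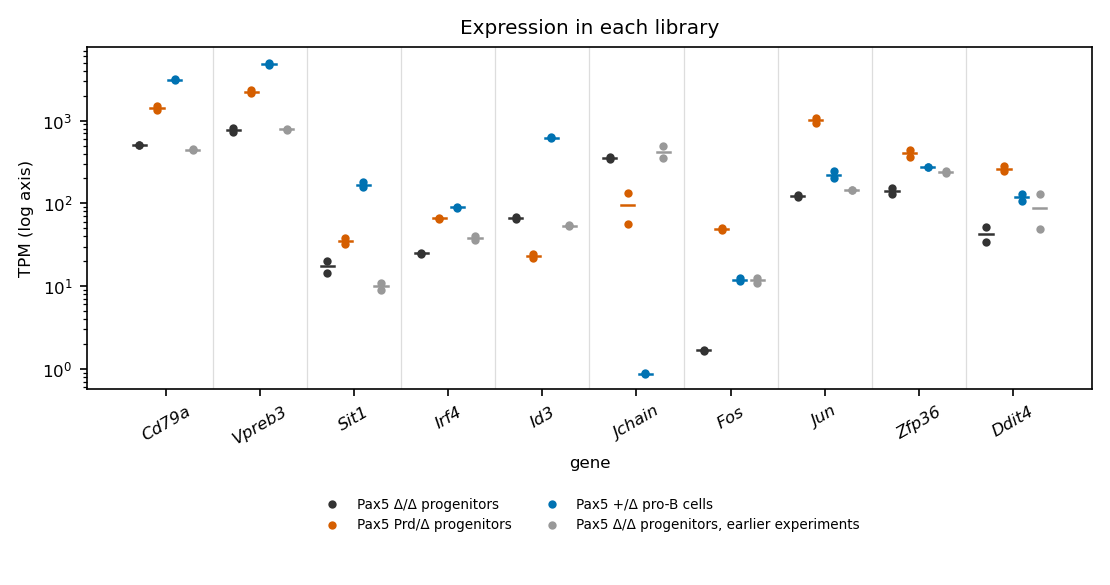
TPM on a log axis for 10 genes, with 1 point per library and a bar at the mean of 2 libraries, for Pax5 ∆/∆, Pax5 Prd/∆, Pax5 +/∆ and the earlier Pax5 ∆/∆ libraries. Cd79a and Vpreb3 lie between Pax5 ∆/∆ and Pax5 +/∆ in the Pax5 Prd/∆ libraries, and Fos and Jun are highest in Pax5 Prd/∆.

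Of 31 B-lineage transcription factors, Irf4 rose, Id3 fell and 29 did not pass. Irf4, a regulator of light chain rearrangement and plasma cell formation, had 66.8 and 64.7 TPM in Pax5 Prd/∆, 24.3 and 25.4 TPM in Pax5 ∆/∆ and 91.0 and 88.4 TPM in Pax5 +/∆ libraries, a difference of 1.40 between the progenitors (standard error 0.08, adjusted p = 0.00206, limma). Its Pax5 Prd/∆ mean reached 73.3% of that in pro-B cells. Id3, an inhibitor of E proteins, moved away from the pro-B cell level. It had 21.8 and 24.1 TPM in Pax5 Prd/∆ and 68.8 and 65.3 TPM in Pax5 ∆/∆ progenitors, against 616 and 627 TPM in Pax5 +/∆ pro-B cells. The difference was -1.54 (standard error 0.08, adjusted p = 0.00206, limma).

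To place these changes beside the effect of the complete protein, genes that depend on Pax5 were taken from other libraries of the series. Here 3 libraries of Pax5 +/+ pro-B cells were compared with 2 earlier libraries of Pax5 ∆/∆ progenitors, none of which entered the comparison above. At an adjusted p under 0.05 and a fold above 3, 448 genes were higher (3.44%) and 524 were lower (4.02%) with Pax5 among 13037 genes tested. In that comparison cell type changes together with Pax5, since pro-B cells were set against progenitors.

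Of the genes that were higher with Pax5, few passed the thresholds in Pax5 Prd/∆ progenitors, and more of these fell than rose. Of the 447 that were tested, 9 rose (2.01%), 26 fell (5.82%) and 412 did not pass, with a median difference of 0.11. Both shares were above those over all genes, 0.403% higher and 0.308% lower. The listed genes had a mean above 5 TPM in the other libraries, whereas all genes tested include lower ones that could not be called. The shares are therefore not matched for level. Their median difference between Pax5 +/+ pro-B cells and Pax5 ∆/∆ progenitors was 2.403. The 9 that rose were Cd79a, Vpreb3, Irf4, Gab1, Phlda1, Col27a1, Sit1, Hivep3 and Pcp4l1. Of these, Pcp4l1 had 7.15 and 4.42 TPM against 1.81 and 2.34 TPM in Pax5 ∆/∆ progenitors, which was 3.21% of its Pax5 +/∆ level. Sit1, which encodes an adaptor of lymphocyte signalling, had 37.8 and 32.6 TPM against 14.4 and 20.1 TPM, or 20.9% of its Pax5 +/∆ level. The rise of these genes therefore covered very different shares of the pro-B cell level.

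The 5 genes with the largest increase with Pax5 stayed near the floor in both progenitors. Heyl, a transcriptional repressor of the Notch pathway, had 0.142 and 0 TPM in Pax5 Prd/∆ and 0 and 0.0243 TPM in Pax5 ∆/∆ progenitors, against 59.5 and 50.2 TPM in Pax5 +/∆ pro-B cells. Mmrn1, Fxyd6, Tmem132e and Pde9a were all under 1 TPM in the 4 progenitor libraries, and none of the 5 passed the test.

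Of the genes that were lower with Pax5, few passed the thresholds in Pax5 Prd/∆ progenitors. Of 520 tested, 10 fell (1.92%), 7 rose (1.35%) and 503 did not pass, with a median difference of -0.08. Over all genes 0.308% fell and 0.403% rose, so both shares were above those of all genes, again without matching for level. The 10 that fell, and so moved toward the pro-B cell level, included Gstp3, Msi1, Jchain, Cxcr3, Kcng1, Smim5 and the uncharacterised genes 1700001C19Rik and 9030619P08Rik. Jchain, which encodes the joining chain of secreted IgM and IgA, had 56.8 and 132 TPM in Pax5 Prd/∆, 341 and 368 TPM in Pax5 ∆/∆ and 0.877 and 0.865 TPM in Pax5 +/∆ libraries. Its difference of -2.03 was only just past the threshold (standard error 0.35, adjusted p = 0.0475, limma), with the 2 Pax5 Prd/∆ libraries well apart from each other. Kcng1, a potassium channel subunit, had 70.3 and 79.3 TPM against 179.7 and 206 TPM (adjusted p = 0.0143, limma). Cxcr3, a chemokine receptor, fell from 12.4 and 11.7 TPM to 2.90 and 4.01 TPM (adjusted p = 0.0412, limma).

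The 7 that rose, and so moved away from the pro-B cell level, were Smoc1, Gimap3, Mrgpra1, Slc25a53, Ston1, Map3k8 and Il6ra. Smoc1, a secreted calcium-binding matrix protein, had 63.9 and 41.4 TPM in Pax5 Prd/∆ and 7.50 and 11.4 TPM in Pax5 ∆/∆ progenitors, against 1.52 and 0.901 TPM in pro-B cells. Gimap3, a GTPase of lymphocytes, had 168 and 117 TPM against 47.0 and 50.01 TPM. Il6ra, the receptor chain for interleukin-6, had 9.50 and 9.32 TPM against 4.36 and 4.09 TPM, but 11.1 and 13.5 TPM in the earlier Pax5 ∆/∆ libraries. Trat1, a T cell adaptor and the gene with the largest decrease with Pax5, had 4.58 and 74.5 TPM in the 2 Pax5 Prd/∆ libraries and 90.5 and 89.2 TPM in the Pax5 ∆/∆ libraries. Its replicates were so far apart that no difference was detected (adjusted p = 0.327, limma).

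**Figure D3:**
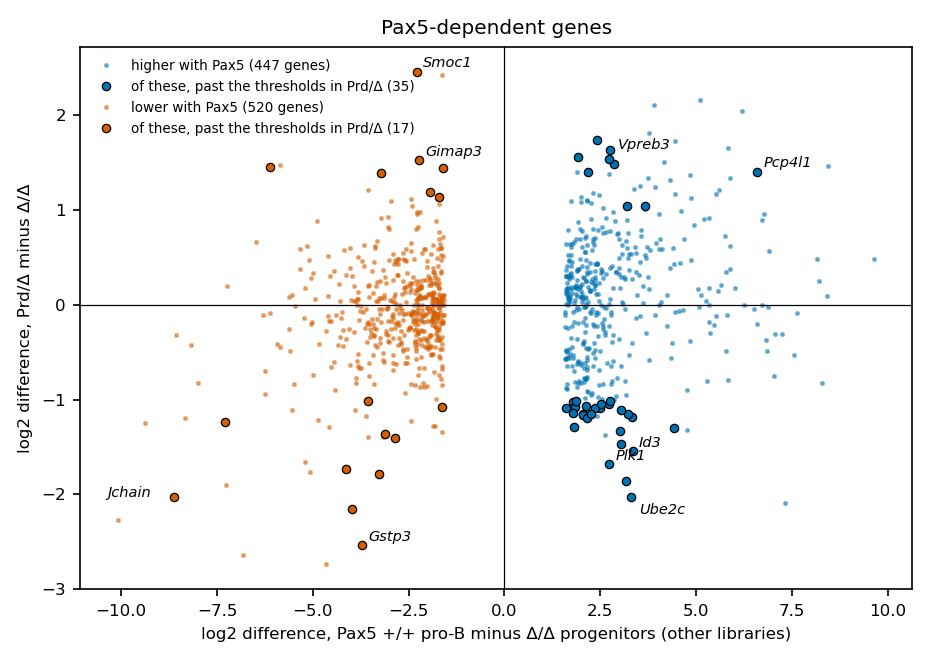
Genes that were higher (blue, 447) or lower (orange, 520) with Pax5 in the other libraries, placed by that log2 difference on the x axis and by the log2 difference between Pax5 Prd/∆ and Pax5 ∆/∆ progenitors on the y axis. Outlined points passed the thresholds in Pax5 Prd/∆, 35 blue and 17 orange, and they lie both above and below 0 in each group.

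Across 12465 genes tested in both comparisons, the log2 differences had a Pearson r of 0.10 and a Spearman rho of 0.08. This is a description across genes, which are not independent replicates, of comparisons that share no library.

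A chosen list of 35 genes of other lineages known to be repressed by Pax5 had 1 member that rose, Ccl3, none that fell and 34 that did not pass, with a median of -0.07. The summed level was 3925 and 4025 TPM in Pax5 Prd/∆ and 4000.2 and 4308 TPM in Pax5 ∆/∆ progenitors, which overlapped, against 1277 and 1317 TPM in pro-B cells. Notch1, the receptor that directs T cell development, had 246 and 278 TPM in Pax5 Prd/∆ and 328 and 352 TPM in Pax5 ∆/∆ progenitors. The groups did not overlap, but the difference of -0.38 (95% interval -0.61 to -0.15) did not pass (adjusted p = 0.115, limma), and pro-B cells were lower at 114 and 126 TPM. Notch2, the receptor used by marginal zone B cells, had 32.7 and 37.7 TPM against 34.9 and 37.2 TPM, with a 95% interval of -0.31 to 0.23. Among 22 genes of the Notch pathway, Neurl1b alone was called, and it fell from 5.23 and 6.24 TPM to 2.59 and 2.42 TPM.

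Fos, an immediate-early gene, had the largest increase of the genes called. Immediate-early genes are transcribed within minutes of a stimulus, and Fos and Jun proteins form the transcription factor AP-1. Fos (chromosome 12, 85473890 to 85477274) had 47.9 and 51.0 TPM in Pax5 Prd/∆, 1.68 and 1.64 TPM in Pax5 ∆/∆ and 11.4 and 12.4 TPM in Pax5 +/∆ libraries. Its difference of 4.81 (standard error 0.13, adjusted p = 8.07e-05, limma) corresponds to 28.1-fold. The earlier Pax5 ∆/∆ libraries had 12.4 and 11.02 TPM, so the 2 sets of Pax5 ∆/∆ progenitors differed in Fos and the fold against the earlier set would be smaller. Over 23 pro-B cell libraries of the other experiments, Fos ranged from 1.59 to 95.1 TPM.

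The 200 bases before the start of Fos, at chr12:85473690-85473889 on the plus strand of GRCm38.p6, are shown because this gene had the largest change. Neither TGACGTCA, the palindromic form of the cAMP response element, nor TGANTCA, the letters of an AP-1 element, occurs in this window. The shorter run TGACGT does occur in it. These are exact matches of letters alone, and the lack of an exact string is not the lack of a binding site.

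Fos: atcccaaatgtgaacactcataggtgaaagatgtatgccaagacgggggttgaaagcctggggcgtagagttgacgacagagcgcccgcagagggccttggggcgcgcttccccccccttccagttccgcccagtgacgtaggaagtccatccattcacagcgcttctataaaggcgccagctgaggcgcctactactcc

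Jun (chromosome 4, 95049036 to 95052222) had 1079.8 and 942 TPM in Pax5 Prd/∆, 126 and 119.8 TPM in Pax5 ∆/∆ and 201 and 245 TPM in Pax5 +/∆ libraries. Its difference was 3.04 (standard error 0.12, adjusted p = 0.000543, limma), and the earlier Pax5 ∆/∆ libraries had 144 and 146 TPM. In the 23 pro-B cell libraries of the other experiments Jun reached at most 213 TPM, so both Pax5 Prd/∆ libraries lay above every other library of these experiments.

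Over the whole list of 37 immediate-early and AP-1 genes, 7 rose, none fell and 30 did not pass, with a median difference of 0.55. Both Pax5 Prd/∆ libraries were above both Pax5 ∆/∆ libraries for 28 of them, against 31.4% of all genes. Zfp36, which encodes an mRNA decay factor, had 446 and 365 TPM against 128 and 155 TPM (1.52, adjusted p = 0.00749, limma). Dusp1, a MAP kinase phosphatase, had 26.8 and 29.0 TPM against 13.5 and 13.1 TPM (1.06, adjusted p = 0.0104, limma), and its Pax5 +/∆ level of 27.5 and 29.5 TPM was close to that of Pax5 Prd/∆. Fosb had 2.55 and 3.16 TPM against 0.142 and 0.146 TPM and missed only the minimum of 5 TPM (adjusted p = 0.0123, limma). The 3 other members called were Phlda1, Jdp2 and Cd69, the last 2 of them named after their values were seen. The summed level of the 40 listed genes was 6189 and 5975 TPM in Pax5 Prd/∆, 3437 and 3573 TPM in Pax5 ∆/∆ and 3419 and 3605 TPM in Pax5 +/∆ libraries.

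Of the 12 chemokine and chemokine receptor genes tested, Ccl3 and Ccl4 rose, Cxcr3 fell and 9 did not pass. Ccl3, an inflammatory chemokine, had 22.5 and 11.7 TPM in Pax5 Prd/∆ against 1.16 and 1.25 TPM in Pax5 ∆/∆ and 2.16 and 2.13 TPM in Pax5 +/∆ libraries. The difference was 3.65 (standard error 0.32, adjusted p = 0.00749, limma). Its neighbour Ccl4 had 11.1 and 7.79 TPM against 1.95 and 1.17 TPM (2.54, adjusted p = 0.0193, limma). The lineage antibodies listed for the study's Pax5-deficient progenitor gate include CD11b, a marker of macrophages and other myeloid cells. The titles do not say whether the alternative gating of these libraries used them. Which cells made these chemokine transcripts was not tested. None of 12 macrophage markers passed the thresholds, with a summed level of 96.1 and 70.6 TPM in Pax5 Prd/∆ and 59.6 and 75.4 TPM in Pax5 ∆/∆ progenitors.

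A minority of the genes that respond to glucocorticoids or to reduced PI3K signalling rose. Of 24 glucocorticoid-responsive genes 5 rose, none fell and 19 did not pass (median 0.59), and of 27 genes responsive to PI3K and FoxO 5 rose, none fell and 22 did not pass (median 0.47), against 0.403% higher among all genes. The 2 counts overlap, since both include Ddit4, Tsc22d3 and Pik3ip1. Ddit4, an inhibitor of mTORC1, had 283 and 245 TPM in Pax5 Prd/∆ and 51.8 and 34.0 TPM in Pax5 ∆/∆ progenitors (2.65, standard error 0.21, adjusted p = 0.00622, limma). Tsc22d3, which encodes the glucocorticoid-induced leucine zipper, had 353 and 404 TPM against 129 and 95.7 TPM (1.77, adjusted p = 0.0114, limma). Pik3ip1, an inhibitor of PI3K at the membrane, had 401 and 354 TPM against 151 and 137 TPM (1.39, adjusted p = 0.00371, limma). The 25 listed glucocorticoid genes summed to 3198 and 3025 TPM in Pax5 Prd/∆ and 1741 and 1719 TPM in Pax5 ∆/∆ progenitors. In the earlier Pax5 ∆/∆ libraries they summed to 2327 and 2295 TPM. The PI3K and FoxO list summed to 3858 and 3559 TPM, 2141 and 2326 TPM, and 2988 and 3409 TPM in the same order. Ddit4 had 129 and 49.1 TPM and Tsc22d3 186 and 128 TPM in the earlier libraries.

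Further members of these lists had the same direction. Deptor, an inhibitor of mTOR, had 6.60 and 6.81 TPM against 1.59 and 1.44 TPM (2.08, adjusted p = 0.0114, limma). The circadian regulator Per1 had 64.9 and 67.8 TPM against 26.2 and 26.8 TPM (1.32, adjusted p = 0.00356, limma). Bmf, a pro-apoptotic gene of the Bcl2 family, had 34.1 and 38.3 TPM against 13.7 and 14.2 TPM, and its Pax5 +/∆ level was like that of Pax5 Prd/∆ at 35.5 and 42.9 TPM. The earlier Pax5 ∆/∆ libraries had 2.92 and 3.79 TPM of Deptor, 33.4 and 31.4 TPM of Per1, and 27.4 and 20.2 TPM of Bmf. These values lay between those of Pax5 ∆/∆ and Pax5 Prd/∆ here.

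Among chaperones, 1 of 25 heat shock genes and 1 of 23 genes of the unfolded protein response rose, and none fell. Hsph1 had 72.4 and 103 TPM against 27.6 and 31.1 TPM (1.55, adjusted p = 0.0146, limma), and the earlier Pax5 ∆/∆ libraries had 35.6 and 101 TPM, which overlaps with Pax5 Prd/∆. Derl3, a factor of protein degradation at the endoplasmic reticulum, had 22.5 and 24.0 TPM against 8.88 and 8.48 TPM (1.41, adjusted p = 0.00648, limma). The list medians were 0.35 and 0.30. Altogether 15 of the 51 higher genes belonged to the immediate-early, glucocorticoid, PI3K, heat shock or unfolded protein lists.

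The remaining higher genes with the largest changes had varied functions. Rab7b, a regulator of late endosomes, had 9.78 and 5.09 TPM against 1.33 and 1.28 TPM. Nrg2, a ligand of ErbB receptors, had 8.49 and 4.34 TPM against 1.06 and 1.28 TPM. Sla, an adaptor that dampens antigen receptor signalling, had 114 and 115 TPM against 37.7 and 30.1 TPM (1.76, adjusted p = 0.00371, limma). Klrb1c, the natural killer cell receptor NK1.1, had 10.4 and 7.92 TPM against 2.90 and 2.32 TPM, and the other 7 natural killer cell genes tested did not pass. Pax5 +/∆ pro-B cells had 8.56 and 8.24 TPM of Klrb1c, close to Pax5 Prd/∆. Among 31 genes of IL-7 receptor and cytokine signalling 2 rose, Il15 (11.3 and 10.2 TPM against 4.43 and 4.58 TPM) and Il6ra (9.50 and 9.32 TPM against 4.36 and 4.09 TPM). In the earlier Pax5 ∆/∆ libraries Il15 had 9.39 and 8.13 TPM and Il6ra had 11.1 and 13.5 TPM. Klrb1c had 7.54 and 6.85 TPM there, and Sla had 76.6 and 62.5 TPM. All of these lay above the Pax5 ∆/∆ libraries here, and Il6ra lay above Pax5 Prd/∆ too. Rab7b at 2.83 and 2.61 TPM and Nrg2 at 1.56 and 1.38 TPM lay well below Pax5 Prd/∆.

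**Figure D4:**
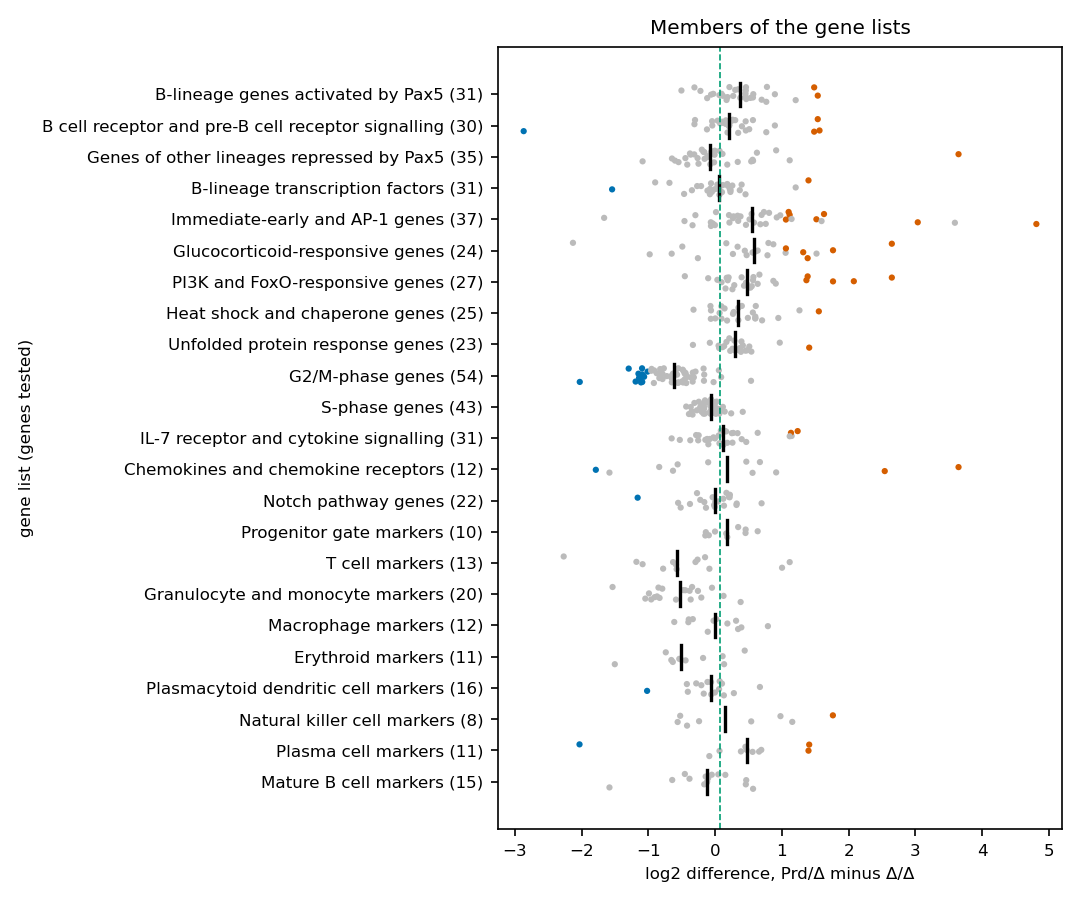
Log2 difference between Pax5 Prd/∆ and Pax5 ∆/∆ progenitors for the tested members of each list (1 point per gene), with the list median as a black bar, the median of all genes (0.07) as a dashed line, and genes past the thresholds in orange (higher) or blue (lower). The median of the immediate-early genes is 0.55 and that of the 54 G2/M-phase genes is -0.61.

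Genes of the G2 and M phases of the cell cycle fell in Pax5 Prd/∆ relative to Pax5 ∆/∆ progenitors of the same experiment. Of 54 listed genes, 11 fell past the thresholds, none rose and 43 did not pass, and 27 fell at an adjusted p under 0.05 with no regard to size (limma), against 0.797% of all genes. The median difference was -0.61, 51 of 54 differences were negative, and for 48 genes both Pax5 Prd/∆ libraries were below both Pax5 ∆/∆ libraries, against 16.2% of all genes. The list summed to 3915 and 3919 TPM in Pax5 Prd/∆, 6098 and 6082 TPM in Pax5 ∆/∆, and 9847 and 9721 TPM in Pax5 +/∆ libraries, and the 3 groups did not overlap. None of 43 S-phase genes passed, with a median of -0.07 and overlapping sums of 6693 and 8706 TPM against 7931 and 8319 TPM. Their differences were small but mostly negative, 34 of 43, whereas 61.0% of all genes tested had a positive difference.

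Single mitotic genes showed the same order of the groups. Ube2c, a ubiquitin-conjugating enzyme of the anaphase-promoting complex, had 125 and 83.0 TPM in Pax5 Prd/∆, 451 and 383 TPM in Pax5 ∆/∆ and 857 and 906 TPM in Pax5 +/∆ libraries (-2.03, standard error 0.19, adjusted p = 0.00952, limma). Plk1, the mitotic kinase Polo-like kinase 1, had 43.9 and 37.4 TPM against 133 and 127 TPM (-1.68, standard error 0.10, adjusted p = 0.00206, limma). Cdc20, an activator of the anaphase-promoting complex, had 108 and 102 TPM against 242 and 209 TPM (-1.09, adjusted p = 0.00817, limma). Aurka, a kinase of the mitotic spindle, had 43.6 and 36.2 TPM against 88.3 and 81.1 TPM (-1.09, adjusted p = 0.0113, limma). Fam83d, a spindle protein, had 5.30 and 3.97 TPM against 17.2 and 16.6 TPM, and Mxd3, a factor of the Max network, had 27.8 and 21.6 TPM against 66.7 and 55.1 TPM. Aurkb and Cdk1 were lower by less than the fold threshold, at -0.79 and -0.91.

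The fall of these genes was not seen against the Pax5 ∆/∆ progenitors of the earlier experiment, which were set beside the others without a test. There the G2/M list summed to 3624 and 3713 TPM, slightly below Pax5 Prd/∆ and far below the Pax5 ∆/∆ libraries here. Plk1 had 39.1 and 30.4 TPM and Ube2c had 93.0 and 58.9 TPM in the earlier libraries. Of the 11 G2/M genes that fell, 2 were lower in both Pax5 Prd/∆ libraries than in all 4 Pax5 ∆/∆ libraries. Of all 39 lower genes this held for 18, and of the 51 higher genes 47 were above all 4. All 90 called genes were already apart from the Pax5 ∆/∆ libraries here, so only the earlier libraries could change these counts. On the log2 scale, the mean of the earlier Pax5 ∆/∆ libraries was nearer to Pax5 Prd/∆ than to the Pax5 ∆/∆ libraries here for 25 of the 39 lower and 14 of the 51 higher genes. The genes were called by their values in the libraries here, and no share over all genes stands beside these counts. They therefore describe the called genes only. The earlier libraries also differed from each other, with granulocyte and monocyte markers summing to 5365 and 774 TPM. The gates of the 2 experiments differ by label, and their part in these values was not tested.

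**Figure D5:**
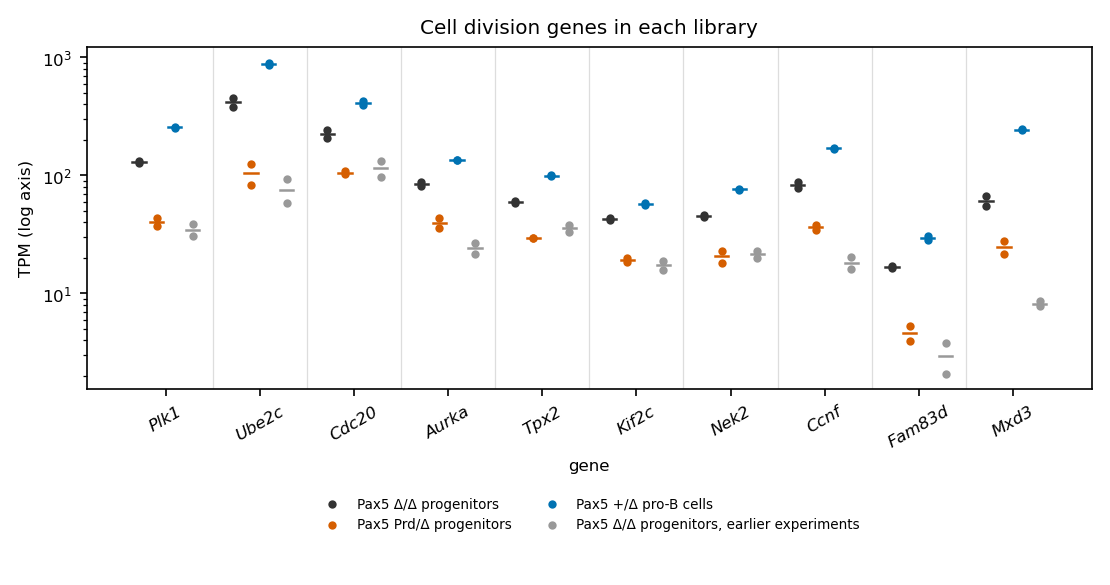
TPM on a log axis for 10 genes of cell division, with 1 point per library and a bar at the mean of 2 libraries. Pax5 Prd/∆ lies below Pax5 ∆/∆ of the same experiment for each gene, and the earlier Pax5 ∆/∆ libraries lie near or below Pax5 Prd/∆, as for Plk1 at 39.1 and 30.4 TPM.

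All 26 genes that were higher with Pax5 but fell in Pax5 Prd/∆ progenitors can be set beside this list. Of these, 11 are its members, and the other 15 include Plk1, Fam83d, Depdc1b, Mxd3, Ccnf, Kif18b and Aspm, which also act in cell division, as well as Id3, Neurl1b and Rtkn2. The 447 genes higher with Pax5 contained 32 members of the G2/M and S-phase lists, and without these the median difference of the remaining genes was 0.16. The lower genes outside cell division include Fn1, which encodes fibronectin, with 2.09 and 1.59 TPM against 4.54 and 7.47 TPM.

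The promoters of cell cycle genes carry known letters, and these were counted in RefSeq promoters (250 bases before to 50 bases after the start, both strands searched, the first listed where a gene had several). Promoters were at hand for 9712 of 12665 genes (76.7%), below the minimum of 80% used for such checks, so shares of all promoters describe those at hand only. In the G2/M list, TTTGAA or its complement TTCAAA, the cell cycle homology region bound by the DREAM and MuvB complexes, occurred in 32 of 47 promoters (68.1%), against 11.7% of all promoters at hand. CCAAT or ATTGG, the element of the factor NF-Y, occurred in 36 of 47 (76.6%), against 39.2% of all, and both occurred together in 26 of 47, against 4.98% of all. For the genes called, such a comparison is void, since promoters were at hand for only 26 of 39 lower genes (66.7%) and 40 of 51 higher genes (78.4%), both under that minimum. Among these, TTTGAA was found in 20 lower genes and 1 higher gene, and CCAAT in 16 lower and 13 higher genes.

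GCGTGAC, letters of the core of the paired domain's recognition sequence, with its reverse complement GTCACGC on the other strand, occurred in 4.23% of all promoters at hand, and the genes called were not compared for it. The promoter of Cd79a holds neither these letters nor those of NF-Y on either strand, which describes exact matches in the window alone. The paper shows by ChIP-seq that Pax5 and the paired domain bind at the Cd79a promoter. The lack of this exact string is therefore not the lack of a binding site.

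Shown here are the 200 bases before the start of 3 lower genes, with CCAAT and TTTGAA (or complements) in capitals, as examples of mitotic genes that fell. Ube2c lies at chr2:164769729-164769928 on the plus strand, Cdc20 at chr4:118437344-118437543 and Ccnf at chr17:24251410-24251609, both on the minus strand of GRCm38.p6.

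Ube2c: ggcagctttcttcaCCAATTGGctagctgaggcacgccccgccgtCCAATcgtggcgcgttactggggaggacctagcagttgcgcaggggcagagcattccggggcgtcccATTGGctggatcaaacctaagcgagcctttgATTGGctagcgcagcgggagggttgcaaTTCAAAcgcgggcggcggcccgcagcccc

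Cdc20: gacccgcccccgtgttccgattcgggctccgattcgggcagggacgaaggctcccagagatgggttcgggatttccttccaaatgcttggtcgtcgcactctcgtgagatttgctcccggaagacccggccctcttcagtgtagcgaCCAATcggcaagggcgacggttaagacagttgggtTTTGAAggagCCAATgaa

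Ccnf: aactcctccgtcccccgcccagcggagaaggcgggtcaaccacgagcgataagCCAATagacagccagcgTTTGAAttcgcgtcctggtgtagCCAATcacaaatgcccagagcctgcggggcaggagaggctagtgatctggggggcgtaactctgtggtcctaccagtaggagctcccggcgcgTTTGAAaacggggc

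In Cdc20 the TTTGAA run lies 18 to 13 bases before the start, with CCAAT runs from 53 and from 8 bases before it. In Ccnf, which encodes cyclin F and had 37.7 and 34.8 TPM against 87.5 and 78.0 TPM (-1.19, adjusted p = 0.00586, limma), runs of TTTGAA begin 130 and 14 bases before the start. In Ube2c a TTCAAA run lies 29 to 24 bases before the start, and CCAAT and ATTGG overlap in 1 place.

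Markers of other cell types were present in the progenitor libraries, and few single genes among them were called. None of 13 T cell markers, 20 granulocyte and monocyte markers, 11 erythroid markers or 15 mature B cell markers passed the thresholds, and 1 of 16 plasmacytoid dendritic cell markers fell (Smim5). The medians of the T cell, granulocyte and erythroid lists were -0.58, -0.53 and -0.51. In the 4 progenitor libraries the T cell markers summed to 750 to 802 TPM, the erythroid markers to 677 to 771 TPM and the mature B cell markers to 3219 to 3615 TPM. Within the T cell list, Cd3d and Cd3e were under 0.3 TPM in all 4 libraries, whereas the adaptor gene Lat had 278 and 163 TPM in Pax5 Prd/∆ and 96.4 and 117 TPM in Pax5 ∆/∆ progenitors. In the erythroid list, Car2, a carbonic anhydrase, lay between 540 and 660 TPM and made up most of the sum, and Slc4a1, the band 3 anion exchanger, lay between 13.1 and 37.8 TPM. Of its 14 genes in the files, 3 were listed at 0 in all 4 libraries. Granulocyte and monocyte markers summed to 472 and 559 TPM in Pax5 Prd/∆ and to 984 and 539 TPM in Pax5 ∆/∆ progenitors, highest in Pax5 ∆/∆ replicate 1, and their part in the differences above was not tested. Of 11 plasma cell markers, Irf4 and Derl3 rose, Jchain fell and 8 did not pass.

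The called genes took different positions relative to the pro-B cells of the same experiment. For 13 of the 51 higher genes the Pax5 Prd/∆ mean lay between those of Pax5 ∆/∆ progenitors and Pax5 +/∆ pro-B cells, for 18 the Pax5 +/∆ mean lay between the progenitors, and for 20 it lay on the other side of Pax5 ∆/∆. Of the 39 lower genes these numbers were 9, 2 and 28. No test was made of these positions, and no share over all genes stands beside these counts. The genes were called by the difference between the progenitors, so the counts describe the called genes only.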

How the data were processed

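The authors sequenced poly(A)-selected RNA, trimmed all reads to a common length, aligned them to GRCm38/mm10 with STAR 2.4.2a, counted reads per RefSeq gene with Rsubread and deposited TPM values per library. The files of the 6 libraries carry no gene names, and names were taken by row order from the named files: 23 of 23 named files had the same order of 25579 genes, and lengths implied by 2 count columns had a constant ratio within 1% on 100% of 14405 rows, against 1.40% after a shift by 1 row. In addition, 144 of 144 genes listed by the study for these libraries fell on the given row. Whole reads were recovered from the TPM values (100% whole within 0.02).

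Differences were tested in the 6 libraries on log2(TPM + 0.1) with limma 3.58.1 (R 4.3.3; linear fit, moderated by eBayes with trend), two-sided, and p-values were adjusted after Benjamini-Hochberg, so fold changes of low genes are understated. Alternatives were edgeR 4.0.16 and DESeq2 1.42.0 on recovered reads, other pseudocounts, filters and scalings, a replicate block and leaving out each library. Genes named are Pax5, the 15 higher and 15 lower genes of largest change, up to 6 members of each list by smallest p, and the Pax5-dependent genes called or among the 5 largest. Members and lists were chosen with earlier results of these data known. Strand and pooling of reads are not given in the sources used here, so overlapping genes cannot be told apart. Some genes that meet the rule for named genes are not reported here.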

Additional observations from a re-analysis of the deposited data

How the results depend on the processing

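The counts of 51 higher and 39 lower genes depended on the fit. They were 29 and 21 without a filter on low values, 22 and 9 without the trend of the spread, and 14 and 10 at a fold above 3. On recovered reads edgeR gave 60 and 64 genes and DESeq2 70 and 73. Leaving out 1 library gave 1 to 193 higher and 0 to 54 lower genes, with the lowest counts without Pax5 ∆/∆ replicate 1 or 2, where an arm had 1 library assumed to vary like the other groups. At an unadjusted p under 0.05, limma still had 1389 and 2042 genes in these fits. The higher genes were 56.7% of those called, against 44.4% after median centring, 46.2% after quantile normalization, 48.4% by edgeR and 49.0% by DESeq2. All 90 genes kept their direction in the limma alternatives, and 89 of the 89 tested by edgeR and DESeq2 did. Deviations of same-numbered libraries correlated at -0.10 between the progenitors, so the numbers do not pair them, and a fit with the replicate block gave 48 higher and 34 lower genes. The crossed replicate block, added after seeing the data, gave 53 and 36.

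Genes that depend on Pax5 numbered 767 higher and 927 lower at a fold above 2, and 398 to 477 and 432 to 520 with 1 library left out. With all 5 Pax5 +/+ libraries they numbered 427 higher and 536 lower. Among 87 named genes, 15 values reversed, all in genes not called. With 1 library left out, the log2 difference ranged from -0.29 to 0.29 for Kit, -0.34 to 0.046 for Ly6d, -0.16 to 1.12 for Heyl, -0.35 to 0.53 for Fxyd6, -2.11 to 0.45 for Tmem132e, -0.17 to 0.66 for Pde9a, -0.14 to 0.065 for Notch2, -8.53 to 0.94 for Xist and -5.60 to 1.71 for Ddx3y. Fxyd6 was -0.015 after median centring, and Ddx3y was 0.63 by edgeR and DESeq2. The causes were not tested. Depth limits genes near 0, such as Heyl, in both progenitors.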
